A study of Mus musculus with 16 samples.

Results

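The chemokine genes and receptors of the array are the genes whose only annotated symbol is Ccl, Cxcl, Ccr or Cxcr followed directly by a number, together with Cx3cl1, Cx3cr1 and Xcl1. There were 51 such genes among 19938 genes measured, each read from 1 probe set: 19 CC ligands, 13 CXC ligands, Cx3cl1 and Xcl1, and 17 receptors. Their levels, log2 of the deposited intensity, were compared in 16 arrays of 6 groups. Secondary kidney tumors (3 arrays) were kidney tumors transplanted subcutaneously into immunodeficient hosts, whose strain the labels do not name. Kidney tumors (3 arrays) came from reprogrammable mice, in which doxycycline switches on reprogramming transgenes; the mice received it from 4 weeks of age for 7 days, and the tumors were taken 7 days after it was stopped. Normal kidney (3 arrays) was of the same age. Liver tumors (3 arrays) were primary tumors of reprogrammable mice and were set against normal liver (3 arrays), for which the labels give no age. ES cells, a pluripotent control of 129xC57BL6 background, had 1 array and entered no test. All mouse tissues were 129xC57BL6 F1 or of mixed background, and per the labels the tumors arose in chimeric mice and can contain cells of the ICR strain. The labels do not say which cells express the transgenes, and nothing states that the 3 arrays of a group are different animals. The p-values therefore rest on the spread among these arrays, part or all of which may be technical.

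Chemokines are small secreted proteins that bind G protein-coupled receptors and make leukocytes move towards their source. CC and CXC ligands are named for the spacing of their first cysteines. Inflammatory ligands are switched on by cytokines and NF-kappaB or by interferons and draw in monocytes, neutrophils or T cells, while homeostatic ligands such as Cxcl12 are made steadily by stroma and place cells within a tissue. Kidney tubules and liver cells can make chemokines themselves, and so can the macrophages, fibroblasts and endothelial cells of a tissue, so a bulk sample holds the sum of these sources. In such samples fewer cells of a type and less RNA per cell cannot be told apart.

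Array medians lay between 191 and 226 intensity units. No detection p came with the values, so a dim gene may be at background, where folds are also compressed. This applies to many of the genes described here: 26 of the 51 had a mean in the dimmest part of the array (below 7.17 log2 units, the lowest 1/3 of all genes), and 29 had no group mean above 8.01, the median of all genes. Tissue markers followed the labels: the summed intensity of 10 proximal tubule genes was 84462 to 89547 in normal kidney and 2554 to 9461 in normal liver, and that of 9 hepatocyte genes was 26778 to 26941 in normal kidney and 96423 to 100803 in normal liver. Some arrays stood apart within their groups. Xist, the RNA of the inactive X chromosome, was at 10.84 and 10.19 in kidney tumors 2 and 3 against 5.6 in kidney tumor 1, and at 10.45 and 11.35 in liver tumors 2 and 3 against 5.89 in liver tumor 1; in all other tissue arrays it lay between 5.65 and 6.31. The adipocyte list (7 genes) averaged 9.89 in secondary tumor 1, 10.03 in normal kidney 2 and 10.25 in normal liver 1, against 6.44 to 7.38 in the other tissue arrays. The main results that rest on the tumor arrays among these are given below with and without them. Without normal kidney 2, 4 of 15 calls in kidney tumors were lost. Among them were Ccl6 (1.72, adjusted p 0.0637), Cxcl1 (0.81, adjusted p 0.105) and Cxcl2 (0.70, adjusted p 0.0821). In secondary tumors against normal kidney that fit lost 3 of 32 calls. Without normal liver 1, 2 of 18 calls in liver tumors were lost, among them that of Ccl19 (-0.61, adjusted p 0.0594). Without either array, Cxcl9 and Cxcl11 no longer passed between normal kidney and normal liver (adjusted p 0.0525 to 0.0747).

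**Figure D1:**
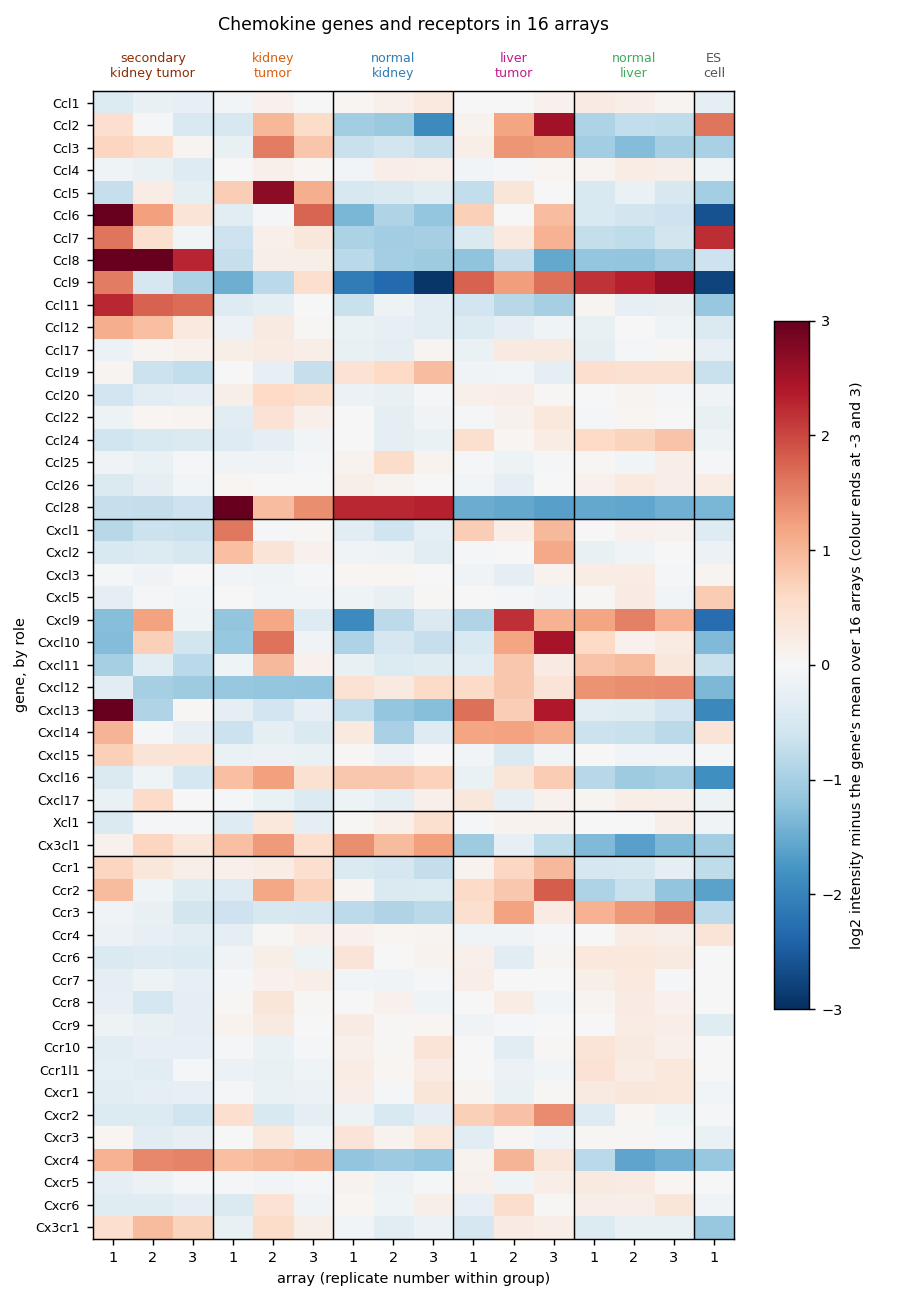
Levels of the 51 chemokine genes (rows, by role) in the 16 arrays (columns), as log2 intensity minus the gene's mean over all arrays, with the colour scale ending at -3 and 3. Ccl8 and Ccl11 are high in the 3 secondary kidney tumors, Cxcr4 is high in all 9 tumor arrays, Ccl28 is high in the kidney arrays other than the secondary tumors, and Ccl9 is high in all 6 liver arrays.

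Cxcr4, the receptor of Cxcl12, was higher in all 3 kinds of tumor than in normal tissue, and Cxcl12 itself was lower. Cxcr4 (probe set 10357472) stood at 9.85, 10.25 and 10.30 in secondary kidney tumors, at 9.73, 9.82 and 9.89 in kidney tumors and at 7.63, 7.73 and 7.65 in normal kidney. In the liver it stood at 8.93, 9.84 and 9.15 in tumors and at 8.0, 7.22 and 7.36 in normal tissue. No tumor array overlapped with the normal arrays of its organ. The log2 change was 2.46 ± 0.23 (SE, 5.49-fold) in secondary and 2.14 ± 0.23 (4.40-fold) in primary kidney tumors against normal kidney, and 1.78 ± 0.23 (3.43-fold) in liver tumors against normal liver, with adjusted p of 8.58e-07, 7.7e-06 and 4.7e-05 in limma (n = 3 arrays a group). Primary and secondary kidney tumors did not differ beyond their spread (0.32 ± 0.23, adjusted p 0.298), nor did normal kidney and normal liver (0.14 ± 0.23, adjusted p 0.659). Both changes against normal kidney share the same 3 control arrays. With kidney tumor 1 as the only kidney tumor the change was 2.05 (adjusted p 0.00125), and with liver tumor 1 as the only liver tumor it was 1.40 (adjusted p 0.00227).

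Cxcl12 (probe set 10541075), the stromal ligand that holds Cxcr4-bearing cells in place, was at 8.67, 7.99 and 7.93 in secondary kidney tumors, at 7.86, 7.82 and 7.80 in kidney tumors and at 9.41, 9.24 and 9.56 in normal kidney. In liver it was at 9.56, 9.80 and 9.37 in tumors and at 10.32, 10.39 and 10.39 in normal tissue. Again no tumor array reached the normal arrays of its organ, and the 3 kidney tumors lay close together. Cxcl12 fell by 1.21 ± 0.17 in secondary kidney tumors, by 1.58 ± 0.17 in kidney tumors and by 0.79 ± 0.17 in liver tumors (SE, adjusted p 3.5e-05, 7.81e-06 and 0.00198 in limma). Of 12 endothelial markers 8 were lower and 2 higher in secondary kidney tumors and 5 lower and 1 higher in kidney tumors, with a summed intensity of 6250 to 6862 in secondary tumors, 6094 to 7733 in kidney tumors and 10703 to 11039 in normal kidney. In liver tumors 1 was lower, with 11142 to 17841 against 9652 to 12374 in normal liver. The part of endothelial cells in the Cxcl12 levels was not tested. Ackr3, a scavenging receptor that also binds Cxcl12 and lies outside the naming rule, did not pass in any of the 3 (0.04 ± 0.24, 0.13 ± 0.24 and 0.56 ± 0.24, adjusted p 0.903, 0.681 and 0.07). Dpp4, a peptidase that cuts Cxcl12 and other chemokines, fell by 2.39 ± 0.37 in secondary and by 1.00 ± 0.37 in primary kidney tumors. It was not called lower in liver tumors. Of 10 proximal tubule markers 10 were lower in secondary and 4 in primary kidney tumors, against 38.7% and 28.1% of all genes. The part of tubule cells in the Dpp4 levels was not tested.

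**Figure D2:**
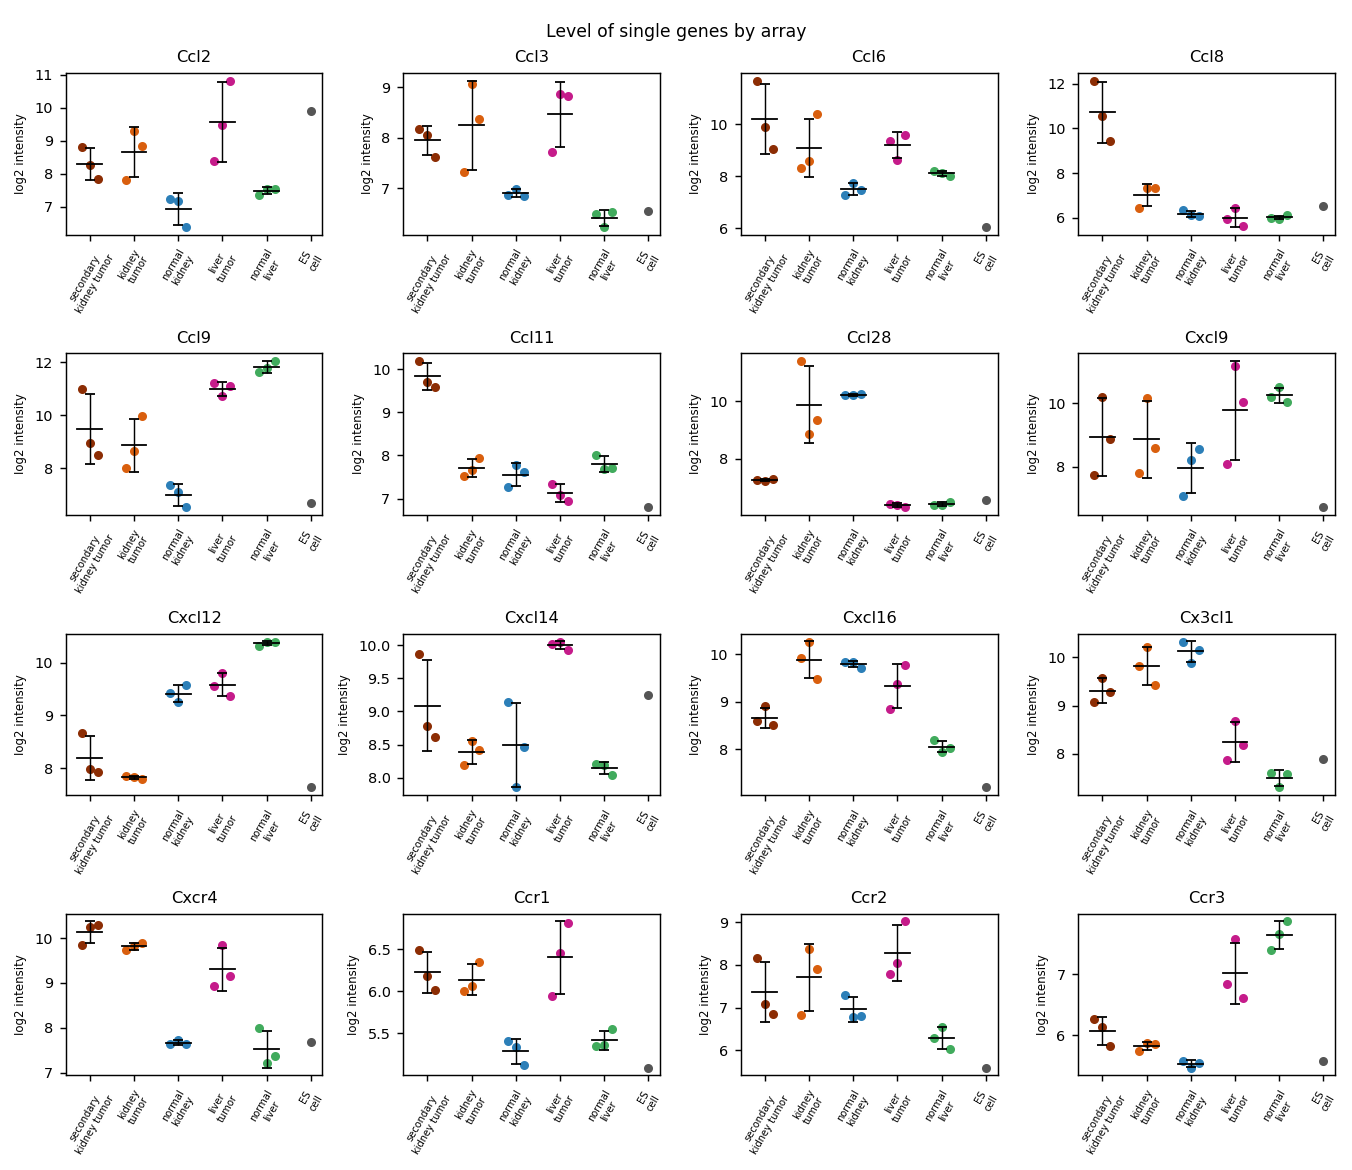
Levels (log2 intensity) of 16 chemokine genes by group. Points are arrays, lines are group means and bars are SDs (n = 3; ES cells have 1 array and no bar). Cxcr4 is above normal tissue in all 3 tumor groups and Cxcl12 below it, with no overlap within an organ, while Ccl8 in secondary tumors lies between 9.44 and 12.14, above every other array.

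Kidney tumors were compared with normal kidney, the main comparison of the design. The CC ligands Ccl2, Ccl3, Ccl5, Ccl6, Ccl9 and Ccl20 were higher, and the ligands Cxcl12 and Ccl19 were lower. Ccl4, Ccl7, Ccl8 and Ccl12, further ligands of monocytes and macrophages, did not pass. Of these, Ccl4 overlapped between the groups. For Ccl7, Ccl8 and Ccl12 every kidney tumor array was above every normal kidney array. Ccl7 was at 7.36, 8.13 and 8.32 against 7.03, 6.93 and 6.98, and Ccl8 at 6.45, 7.31 and 7.32 against 6.33, 6.12 and 6.07. Ccl12 was at 5.87, 6.31 and 6.07 against 5.85, 5.79 and 5.72. Neither Cxcl14 nor Cxcl13 passed, although Cxcl13 was at 7.70, 7.42 and 7.75 in kidney tumors against 7.26, 6.84 and 6.71 in normal kidney. In limma 15 of 51 genes passed an adjusted p of 0.05, 10 higher and 5 lower, which is 29.4% against 49.8% of all 19938 genes. Higher calls made up 19.6% of the 51 and 21.7% of all genes, and lower calls 9.8% and 28.1%. The share of chemokine genes called was thus not above that of genes at large. With the fit on the compared groups only, 14 of the 51 were higher and 3 lower, and 51% of all genes were called. The median log2 change was 0.14 over the 51 and -0.11 over all genes, or -0.24 over all genes with each array centred on its median. The groups did not overlap for 25 of the 51 genes, against 64.6% of all genes. Called changes of at least 2-fold were 6 rises and 1 fall, where such rises made up 8.3% and such falls 8.03% of all genes. By role, 6 CC ligands rose and 2 fell of 19, 2 CXC ligands rose and 1 fell of 13, neither Cx3cl1 nor Xcl1 passed, and 2 receptors rose and 2 fell of 17.

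Ccl5, a ligand of T cells and monocytes, was at 9.26, 11.20 and 9.61 in kidney tumors and at 8.03, 8.08 and 8.18 in normal kidney (change 1.93 ± 0.42, adjusted p 0.00174). Ccl2, the main monocyte attractant through Ccr2, was at 7.82, 9.30 and 8.86 in kidney tumors and at 7.25, 7.19 and 6.39 in normal kidney (1.71 ± 0.52, adjusted p 0.0147). Ccl3, a macrophage product that binds Ccr1, was at 7.32, 9.08 and 8.37 in kidney tumors and at 6.88, 6.99 and 6.84 in normal kidney (1.35 ± 0.38, adjusted p 0.00903). In all 3 genes kidney tumor 2 was highest and kidney tumor 1 lowest of the tumors, yet above every normal array. Ccl9 and Ccl6, neighbouring mouse genes for Ccr1 ligands of macrophages, were both highest in kidney tumor 3. Ccl9 was at 8.0, 8.65 and 9.96 in kidney tumors and at 7.36, 7.11 and 6.53 in normal kidney (1.87 ± 0.57, adjusted p 0.015), and Ccl6 at 8.32, 8.60 and 10.39 against 7.29, 7.75 and 7.48 (1.60 ± 0.60, adjusted p 0.0418). Ccl20, the ligand of Ccr6, rose by 0.57 ± 0.11 at a low level of 7.34 ± 0.23 (SD) against 6.78 ± 0.10. With kidney tumor 1 alone, Ccl2 (0.88), Ccl3 (0.42), Ccl6 (0.81), Ccl9 (1.00) and Ccl20 (0.31) no longer passed, with adjusted p from 0.0985 to 0.463, while Ccl5 did (1.17, adjusted p 0.0393). Leaving out single arrays also ended the call of Ccl2 in 2 of 6 cases (highest adjusted p 0.0672), of Ccl9 in 2 (0.0763) and of Ccl6 in 4 (0.193).

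Ccl19, which guides Ccr7-bearing lymphocytes and dendritic cells, was at 7.83, 7.57 and 7.13 in kidney tumors and at 8.23, 8.41 and 8.73 in normal kidney, and fell by 0.95 ± 0.21 (adjusted p 0.00221; -0.63 and adjusted p 0.114 with kidney tumor 1 alone). The array has 5 probe sets for Ccl19 whose levels run in parallel, so near-identical gene copies cannot be told apart. The related Ccl21 genes share 4 probe sets with several symbols and were not counted among the 51; the first of them was at 6.99, 6.76 and 6.80 in kidney tumors and at 8.74, 7.92 and 8.72 in normal kidney. Ccl28, a ligand made by epithelia, was at 11.40 in kidney tumor 1, but at 8.88 and 9.35 in kidney tumors 2 and 3, around the normal level of 10.21, 10.20 and 10.26. Its mean change of -0.35 ± 0.44 did not pass (adjusted p 0.524).

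Among CXC ligands, the neutrophil attractants Cxcl1 and Cxcl2 were higher. Cxcl1 was at 9.28 in kidney tumor 1 and at 7.66 and 7.73 in the others, against 7.39, 7.10 and 7.43 in normal kidney. Cxcl2 was at 6.91, 6.38 and 6.13 in kidney tumors and at 5.89, 5.85 and 5.65 in normal kidney. Both were highest in kidney tumor 1, unlike the CC ligands above. The changes were 0.91 ± 0.33 (adjusted p 0.0367) and 0.68 ± 0.26 (adjusted p 0.0482), and neither call was firm: without kidney tumor 1 Cxcl1 changed by 0.39 and Cxcl2 by 0.46, and neither passed. Cxcl3, their neighbour with the same receptor, was at 5.97, 5.93 and 6.02 in kidney tumors against 6.12, 6.10 and 6.06. Cxcl9, Cxcl10 and Cxcl11, the interferon-induced ligands of Cxcr3, did not pass (0.90 ± 0.80, 0.84 ± 0.74 and 0.66 ± 0.31, adjusted p 0.363, 0.359 and 0.094). Of the kidney tumors, number 2 alone stood high, with Cxcl9 at 10.17 against 7.81 and 8.61 in kidney tumors 1 and 3, Cxcl10 at 10.06 against 7.29 and 8.33, and Cxcl11 at 8.15 against 7.04 and 7.31. In normal kidney they were at 7.09 to 8.57, 7.49 to 7.91 and 6.76 to 6.95. The 13 genes of the interferon response list averaged 9.0 in that array and 7.99 and 8.20 in kidney tumors 1 and 3, against 7.96 to 8.04 in normal kidney. The T and NK cell list averaged 6.78 there, against 6.34 to 6.44 in the other kidney tumors and normal kidney, and Cd3g, part of the T cell receptor complex and chosen after its values were seen, 7.63 against 6.07 to 6.46. Of the 12 genes of the T and NK cell list, 2 were called higher and 2 lower in kidney tumors against normal kidney, where 21.7% and 28.1% of all genes were. The list averaged 6.30 in the ES cell array and up to 6.72 in normal liver. The part of the interferon response and of T and NK cells in the levels of the 3 ligands was not tested.

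The promoters of Cxcl1, Cxcl2, Cxcl3 and Cxcl10 are shown because Cxcl1, Cxcl2 and Cxcl3 share a kappaB sequence although Cxcl3 was not called in any comparison, and because Cxcl10 holds an ISRE match beside kappaB matches. The sequences are the 250 bases before the annotated start in RefSeq, build GRCm38.p6, 5′ to 3′ on the gene's strand: Cxcl1 at chr5:90890995-90891244 (plus strand), Cxcl2 at chr5:90903649-90903898 (plus), Cxcl3 at chr5:90785851-90786100 (plus) and Cxcl10 at chr5:92348890-92349139 (minus). Capitals mark matches to the kappaB consensus, the site of NF-kappaB, and in Cxcl10 also to the ISRE core of interferon-induced genes, GAAANN followed by GAAA (the capitals nearest the 5′ end) and to the AP-1 motif TGANTCA (the capitals nearest the start).
Cxcl1: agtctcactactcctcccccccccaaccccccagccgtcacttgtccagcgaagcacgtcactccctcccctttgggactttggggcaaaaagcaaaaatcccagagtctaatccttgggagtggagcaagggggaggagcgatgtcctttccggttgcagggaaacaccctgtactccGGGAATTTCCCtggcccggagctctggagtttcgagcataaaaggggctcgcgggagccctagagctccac
Cxcl2: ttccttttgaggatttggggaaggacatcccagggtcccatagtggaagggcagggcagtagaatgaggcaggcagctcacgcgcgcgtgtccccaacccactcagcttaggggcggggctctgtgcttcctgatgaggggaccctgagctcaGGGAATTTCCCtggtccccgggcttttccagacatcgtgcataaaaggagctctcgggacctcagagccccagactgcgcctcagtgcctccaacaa
Cxcl3: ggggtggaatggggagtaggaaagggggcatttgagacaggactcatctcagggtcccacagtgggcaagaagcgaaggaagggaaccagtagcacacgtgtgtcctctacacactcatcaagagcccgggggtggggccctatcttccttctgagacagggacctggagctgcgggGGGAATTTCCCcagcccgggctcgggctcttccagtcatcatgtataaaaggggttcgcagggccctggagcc
Cxcl10: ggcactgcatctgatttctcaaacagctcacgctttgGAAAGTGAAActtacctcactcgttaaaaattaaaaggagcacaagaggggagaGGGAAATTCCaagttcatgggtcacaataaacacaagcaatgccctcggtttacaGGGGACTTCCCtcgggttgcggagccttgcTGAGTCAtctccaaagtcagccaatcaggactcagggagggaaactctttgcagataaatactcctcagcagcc
Both strands were searched, and overlapping matches were joined in 1 run of capitals. Of 51 genes, 37 had a promoter in the table. The kappaB consensus was in 10 of the 37 (27%) and in 7.25% of all 32851 promoters, the ISRE core in 3 (8.11% against 2.98%), the AP-1 motif in 4 (10.8% against 6.75%) and the GAS motif TTCNNNGAA of STAT factors in 4 (10.8% against 7.02%). The units differ: the 37 were counted as genes, with a match in any of their 39 promoters, and the background was counted by promoter. The 10 with the kappaB consensus were Ccl1, Ccl9, Ccl20, Ccr1, Ccr3, Ccr6, Cxcl1, Cxcl2, Cxcl3 and Cxcl10. These are matches of letters and say nothing of binding.

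Among receptors, Ccr1 was higher in kidney tumors beside Cxcr4, at 6.0, 6.06 and 6.34 against 5.41, 5.33 and 5.12 in normal kidney (0.85 ± 0.19, adjusted p 0.00223; 0.71 and adjusted p 0.0783 with kidney tumor 1 alone). Ccr2, the receptor of inflammatory monocytes, was at 6.83, 8.37 and 7.91 in kidney tumors and at 7.30, 6.77 and 6.81 in normal kidney, which overlap (0.74 ± 0.43, adjusted p 0.164). Cx3cr1, a receptor of tissue macrophages, was at 8.06, 8.84 and 8.47 against 8.19, 7.97 and 8.11 (0.36 ± 0.22, adjusted p 0.177). Its ligand Cx3cl1 was at 9.83, 10.21 and 9.43 against 10.32, 9.89 and 10.16 (-0.30 ± 0.23, adjusted p 0.291), and the epithelial and macrophage ligand Cxcl16 at 9.93, 10.25 and 9.47 against 9.84, 9.83 and 9.71 (0.09 ± 0.22, adjusted p 0.745). Both membrane-bound ligands lay between 9.43 and 10.32 in these 6 arrays. Lower calls of small size were Ccr1l1 (-0.36 ± 0.09), Ccl25 (-0.34 ± 0.11) and Cxcr1 (-0.29 ± 0.10, with overlapping arrays). Another Ccl25 probe set was at 7.25, 7.59 and 7.54 in kidney tumors against 8.11, 8.24 and 8.34 in normal kidney. Of 13 macrophage markers 12 rose and Csf1r fell, where 21.7% of all genes were called higher and 28.1% lower. Of the 19 CC ligands 6 rose and 2 fell. The summed intensity of the macrophage markers was 12770, 14129 and 13073 in kidney tumors 1, 2 and 3, and 4064 to 4761 in normal kidney. Cd68, a lysosomal protein of macrophages, rose by 2.03 ± 0.22. The part of these cells in the chemokine levels was not tested.

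In secondary kidney tumors Ccl8 and Ccl11 rose in addition to the macrophage ligands Ccl6, Ccl9 and Ccl7, while Ccl28, Cxcl12, Cxcl16, Ccl19 and Cx3cl1 fell. Against normal kidney 32 of 51 genes passed (62.7%, background 68.6%), 14 higher (27.5% against 29.9% of all genes) and 18 lower (35.3% against 38.7%). The median change was -0.15 over the 51 and -0.12 over all genes (-0.35 centred), and 37 of the 51 did not overlap, against 79.6% of all genes. Called changes of at least 2-fold were 10 rises and 4 falls, against 13.9% and 11.1% of all genes. Of the CC ligands 8 rose and 7 fell, of the CXC ligands 2 and 2, of the receptors 4 and 8, and Cx3cl1 fell.

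Ccl8, a monocyte chemoattractant that in mice binds Ccr8, was at 12.14, 10.57 and 9.44 in secondary tumors, at 6.45, 7.31 and 7.32 in kidney tumors and at 6.33, 6.12 and 6.07 in normal kidney. All 3 secondary tumors were far above every other array of the series, and the primary tumors were only slightly above normal kidney. The change was 4.54 ± 0.49 (23.3-fold, adjusted p 3.65e-06) against normal kidney and 3.69 ± 0.49 (12.9-fold, adjusted p 7.12e-05) against primary tumors, where the rise over normal kidney had not passed (0.85 ± 0.49, adjusted p 0.17). Ccl11, the eosinophil attractant eotaxin made by fibroblasts and epithelia, was at 10.20, 9.71 and 9.59 in secondary tumors, at 7.53, 7.65 and 7.94 in kidney tumors and at 7.26, 7.78 and 7.61 in normal kidney. The primary tumors thus overlapped with normal kidney and the secondary tumors did not (2.28 ± 0.18 against normal kidney, adjusted p 2.31e-07; 2.12 ± 0.18 against primary tumors, adjusted p 1.34e-06). Ccl12, a mouse ligand of Ccr2, reached 7.12, 6.95 and 6.34 in secondary tumors, against 5.87, 6.31 and 6.07 in kidney tumors and 5.85, 5.79 and 5.72 in normal kidney (1.02 ± 0.17 and 0.72 ± 0.17). Cxcl15, a mouse CXC ligand, stood at 6.38, 6.05 and 6.08 in secondary tumors, at 5.48, 5.49 and 5.47 in kidney tumors and at 5.71, 5.49 and 5.65 in normal kidney, all near the low end of the scale.

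Ccl6 was at 11.69, 9.89 and 9.03 in secondary tumors and Ccl9 at 10.98, 8.95 and 8.50, with secondary tumor 1 far above the others in both. Against normal kidney they rose by 2.70 ± 0.60 and 2.48 ± 0.57 (adjusted p 0.00156 and 0.00191), and neither differed from primary tumors beyond its spread (1.10 ± 0.60 and 0.61 ± 0.57, adjusted p 0.174 and 0.426). Ccl7, a monocyte attractant beside Ccl2 in the genome, was at 9.59, 8.46 and 7.90 against 7.03, 6.93 and 6.98 in normal kidney (1.67 ± 0.41, adjusted p 0.003). Ccl2 itself was at 8.80, 8.27 and 7.85 (1.36 ± 0.52, adjusted p 0.0327) and Ccl3 at 8.17, 8.06 and 7.62 (1.05 ± 0.38, adjusted p 0.0248). The calls of Ccl2 and Ccl3 were lost in 3 and 4 of 6 fits that left out 1 array. Cxcl13, which attracts B cells through Cxcr5, passed narrowly (1.97 ± 0.83, adjusted p 0.0492) on 1 array: it was at 11.58 in secondary tumor 1 and at 7.09 and 8.03 in the others, against 7.26, 6.84 and 6.71 in normal kidney. It is named here after its values were seen, and without that array the change was 0.63 ± 0.39 (adjusted p 0.178).

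Secondary tumor 1 was also the array with the adipocyte signal, at a list mean of 9.89 against 6.57 and 6.44 in the others. Its mast cell list (6 genes) averaged 7.35 against 6.19 and 6.25, with the mast cell protease gene Cpa3 at 8.57 against 5.45 and 5.73, and its summed macrophage intensity was 24324 against 17058 and 12667. Without it the changes against normal kidney were 3.83 ± 0.34 for Ccl8, 2.1 ± 0.18 for Ccl11, 1.96 ± 0.50 for Ccl6, 1.73 ± 0.44 for Ccl9 and 1.20 ± 0.36 for Ccl7, all with an adjusted p of 0.0129 or less. Fibroblast markers were higher in all 3 arrays: 10 of 11 rose against normal kidney and 9 of 11 against primary tumors, with a summed intensity of 23489 to 29536 in secondary tumors, 5741 to 10096 in kidney tumors and 5447 to 6487 in normal kidney. Of all genes, 29.9% were called higher against normal kidney and 18.5% against primary tumors. All 9 keratinocyte markers were higher than in primary tumors. The part of these cells in the chemokine levels was not tested.

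Ccl28 fell in secondary tumors to 7.26, 7.23 and 7.32, against 11.40, 8.88 and 9.35 in kidney tumors and 10.21, 10.20 and 10.26 in normal kidney (-2.96 ± 0.44 against normal kidney, adjusted p 6.17e-05; -2.61 ± 0.44 against primary tumors, adjusted p 0.000459). Cxcl16 was at 8.58, 8.90 and 8.50 in secondary tumors, below every primary tumor and normal kidney array (-1.23 ± 0.22 against primary tumors, adjusted p 0.000775; -1.13 ± 0.22 against normal kidney, adjusted p 0.000592). Cx3cl1 was at 9.06, 9.58 and 9.27 and fell against normal kidney (-0.82 ± 0.23, adjusted p 0.00688) but not against primary tumors (-0.52 ± 0.23, adjusted p 0.0968). These 3 ligands are made by epithelia. The 10 proximal tubule markers all fell, to a summed intensity of 1624 to 2219 in secondary tumors, against 23636 to 44972 in kidney tumors and 84462 to 89547 in normal kidney. Other epithelial markers rose: of 9 keratinocyte genes 8 were higher and 1 lower than in normal kidney, against 29.9% and 38.7% of all genes. Cxcl14, also a ligand of epithelia, was not called lower, at 9.87, 8.78 and 8.61 against 9.14, 7.87 and 8.47 in normal kidney. The part of epithelial cells in the ligand levels was not tested. Cx3cr1 moved the other way from its ligand, at 8.79, 9.24 and 8.95 (0.90 ± 0.22 against normal kidney, adjusted p 0.00249), as did Ccr1 at 6.48, 6.17 and 6.01 (0.94 ± 0.19). Ccr3, the eosinophil receptor for Ccl11, rose by 0.54 ± 0.20 at a level of 6.07 ± 0.23 (SD), near the low end. A further 13 genes fell by 0.33 to 0.56 log2 units, both ligands (among them Ccl1, Ccl24 and Ccl26) and receptors. The receptors included Ccr6, Ccr9, Cxcr3 and Ccr4 of lymphocytes, at low means of 5.69 to 7.17 in secondary tumors. With quantile normalization the falls of Ccl24, Ccr4, Ccr8 and Ccr9 were no longer called. T and NK cell markers were low in the same arrays, with 7 of 12 lower than normal kidney, where 38.7% of all genes were lower. Their summed intensity was 841 to 964 against 1043 to 1159. In the ES cell array it was 1107, within the range of normal kidney, so the list may be near background in all of them. Ccr6, Ccr9, Cxcr3 and Ccr4 were at 6.10, 5.68, 7.15 and 6.32 in the ES cell array. The part of T and NK cells in the receptor levels was not tested.

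Secondary against primary kidney tumors, 18 of 51 genes passed (35.3%, background 36%), 4 higher (7.84% against 18.5%) and 14 lower (27.5% against 17.4%), with a median of -0.18 over the 51 and -0.07 over all genes (-0.16 centred). The groups did not overlap for 24 of 51, against 56.2% of all genes, and called changes of at least 2-fold were 2 rises and 5 falls, against 7.46% and 4.36% of all genes. The 4 higher were Ccl8, Ccl11, Ccl12 and Cxcl15. The lower ones included, besides Ccl28 and Cxcl16, 4 of the 8 ligands called higher in primary tumors (Ccl5, Cxcl1, Cxcl2 and Ccl20), while Ccl2, Ccl3, Ccl6 and Ccl9 did not pass. Those 8 were called on the same primary tumor arrays that serve as reference here. That choice favours lower calls, so the overlap is not a separate result. Ccl5 was at 7.82, 8.73 and 8.25 in secondary tumors (-1.75 ± 0.42, adjusted p 0.00504), Cxcl1 at 6.87, 7.05 and 7.04 (-1.23 ± 0.33, adjusted p 0.0112), and Cxcl11 at 6.17, 6.82 and 6.37 (-1.05 ± 0.31, adjusted p 0.0181). Cxcl2 at 5.54, 5.58 and 5.53 (-0.93 ± 0.26) and Ccl20 at 6.35, 6.60 and 6.63 (-0.82 ± 0.11) followed, all without overlap with the primary tumors. None of these 5 passed between secondary tumors and normal kidney. Of the signals that induce such ligands, none of 18 was higher and 6 were lower, among them Il1b (-1.20 ± 0.29) and Tnfaip3 (-1.01 ± 0.18), a feedback gene of NF-kappaB. With kidney tumor 1 as the only primary tumor, Ccl5 (-0.99, adjusted p 0.0749) and Cxcl11 (-0.59, adjusted p 0.288) no longer passed.

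In liver tumors against normal liver the receptors Ccr1, Ccr2, Cxcr2 and Cxcr4 rose, as did the ligands Ccl2, Ccl3, Cxcl14, Cxcl16 and Cx3cl1, while the receptors Cxcr1, Ccr3, Ccr10 and Ccr1l1 fell. Here 18 of 51 genes passed (35.3%, background 52.3%), 9 higher (17.6% against 21.5% of all genes) and 9 lower (17.6% against 30.7%). The median was -0.11 over the 51 and -0.13 over all genes, or -0.33 over all genes with centred arrays; centring moved the chemokine calls to 9 higher and 22 lower. The groups did not overlap for 26 of 51 genes, against 59.2% of all genes. All 7 called changes of at least 2-fold were rises (7.18% of all genes, with such falls at 4.97%): Ccl2, Ccl3, Cxcl14, Cxcl16, Ccr2, Cxcr4 and Cxcr2.

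Ccr2 was at 7.79, 8.03 and 9.02 in liver tumors and at 6.28, 6.55 and 6.04 in normal liver (1.99 ± 0.43, adjusted p 0.00203), and its ligand Ccl2 at 8.40, 9.48 and 10.82 against 7.37, 7.55 and 7.54 (2.08 ± 0.52, adjusted p 0.00521). Ccr1 was at 5.94, 6.45 and 6.81 in liver tumors and at 5.34, 5.36 and 5.55 in normal liver (0.99 ± 0.19), and its ligand Ccl3 at 7.73, 8.87 and 8.82 against 6.48, 6.23 and 6.53 (2.06 ± 0.38, adjusted p 0.000664). Cxcr2, the neutrophil receptor for Cxcl1 and Cxcl2, was at 6.57, 6.74 and 7.28 against 5.46, 5.91 and 5.74 (1.16 ± 0.23, adjusted p 0.00127). All tumor arrays were above all normal arrays in each of the 5, and liver tumor 1 was the lowest tumor array in each. Cxcl1 at 8.44, 7.91 and 8.66 against 7.70, 7.82 and 7.80 did not pass (0.56 ± 0.33, adjusted p 0.169), nor did Cxcl2 (0.48 ± 0.26, adjusted p 0.139). Of 10 neutrophil markers 6 were higher, among them S100a8 (1.01 ± 0.25) and Ngp (1.04 ± 0.31), where 21.5% of all genes were higher. The list means were 7.48, 6.76 and 7.23 against 6.48, 6.70 and 6.53. They were lowest in liver tumor 2, while Cxcr2 was lowest in liver tumor 1, and the receptor Cxcr1 was called lower. Of 13 macrophage markers 6 were higher, and their summed intensity was 13414 to 17236 in liver tumors and 8459 to 8951 in normal liver. The part of these cells was not tested. With liver tumor 1 as the only tumor, an alternative chosen after seeing the data, Ccr2 (1.5), Ccl2 (0.91), Ccr1 (0.53), Ccl3 (1.31) and Cxcr2 (0.86) kept their direction but not their calls, with adjusted p from 0.0546 to 0.217.

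Cxcl14, a ligand of epithelia and stroma, rose with little spread, at 10.02, 10.05 and 9.93 in liver tumors against 8.20, 8.19 and 8.04 in normal liver (1.86 ± 0.31, adjusted p 0.000388). It was 1.88 (adjusted p 0.0142) with liver tumor 1 alone. Cxcl16 was at 8.83, 9.38 and 9.77 against 8.19, 7.95 and 8.03 (1.27 ± 0.22, adjusted p 0.000468), and Cx3cl1 at 7.86, 8.69 and 8.17 against 7.61, 7.30 and 7.57 (0.75 ± 0.23, adjusted p 0.0161). Cxcl16 still passed with liver tumor 1 alone (0.78, adjusted p 0.0346), and Cx3cl1 did not (0.37, adjusted p 0.359). Cx3cr1 did not pass (0.26 ± 0.22, adjusted p 0.316). Cxcl13 was at 9.64, 8.73 and 10.40 in liver tumors and at 7.69, 7.64 and 7.42 in normal liver, without overlap, but missed the threshold (2.01 ± 0.83, adjusted p 0.0567), with 1 estimate of spread taken over all groups. Besides Cxcl12, lower genes were Ccl11, at 7.34, 7.09 and 6.94 against 8.01, 7.69 and 7.70 (-0.68 ± 0.18, adjusted p 0.00814), Ccl19 (-0.63 ± 0.21, adjusted p 0.025), Ccr3 (-0.63 ± 0.20, with overlapping arrays) and 5 genes that fell by 0.34 to 0.45. The Ccl19 call was lost in 4 of 6 fits that left out 1 array (adjusted p up to 0.0712). With liver tumor 1 alone neither Ccl11 (-0.46, adjusted p 0.215) nor Ccl19 (-0.58, adjusted p 0.206) passed. Cxcl9 and Cxcl10 spread widely in the tumors, at 8.10, 11.19 and 10.05 and at 7.97, 9.60 and 10.88, around normal levels of 10.04 to 10.52 and of 8.55 to 9.03.

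Normal kidney and normal liver were set against each other to show which genes differ with the organ. In limma 9 of 51 passed (17.6%, background 37.8%), 3 higher and 6 lower in kidney (5.88% and 11.8% against 21.4% and 16.4% of all genes), and 21 did not overlap, against 56.4%. Called differences of at least 2-fold were 3 higher and 4 lower, against 7.64% and 5.5% of all genes. The median was -0.13 over the 51 and -0.04 over all genes (-0.12 centred). The 3 higher in kidney were ligands that epithelia can make: Ccl28 at 10.21, 10.20 and 10.26 against 6.42, 6.39 and 6.5 in liver (3.79 ± 0.44, 13.8-fold), Cx3cl1 at 10.32, 9.89 and 10.16 against 7.61, 7.30 and 7.57 (2.63 ± 0.23), and Cxcl16 (1.74 ± 0.22). Others of that kind, Cxcl14, Ccl20 and Ccl25, did not pass. Another probe set of Ccl25 did not overlap, at 8.11, 8.24 and 8.34 in kidney against 7.58, 7.70 and 7.78 in liver. With the mean of a gene's probe sets 4 genes were called higher in kidney. Ccl9 was at 7.36, 7.11 and 6.53 in kidney, against 11.62, 11.78 and 12.06 in liver (-4.82 ± 0.57, 28.2-fold lower). Ccr3 (-2.11 ± 0.20), Cxcl12 (-0.96 ± 0.17) and Ccl24 (-0.86 ± 0.12), a further Ccr3 ligand, were also lower in kidney. So were Cxcl9 (-2.29 ± 0.80, adjusted p 0.0381) and Cxcl11 (-1.05 ± 0.31, adjusted p 0.0168), whose calls were lost in 5 and 3 of 6 fits that left out 1 array. Macrophage and interferon genes were lower in normal kidney too, 10 of 13 and 5 of 13.

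Kidney and liver tumors, compared through groups that share no array, had 8 called genes in common, 53.3% of the 15 called in kidney and 44.4% of the 18 called in liver. Ccl2, Ccl3, Ccr1 and Cxcr4 were higher in both, Cxcl12, Ccl19, Ccr1l1 and Cxcr1 lower in both, and none was called in opposite directions. Over all genes the shared calls were a larger part, 66.6% of those in kidney and 63.4% of those in liver, with 5.89% of them in opposite directions. The difference between the tumor effects, kidney minus liver, was tested for each gene, and 7 of 51 passed (13.7%, background 16.8%), 3 with a higher value in kidney (5.88% against 7.54%) and 4 with a lower one (7.84% against 9.26%). Those of at least 2-fold were 1 and 3, against 3.34% and 4.24% of all genes. The median difference was 0.10 over the 51 and 0.03 over all genes (0.10 centred). Ccl9 had the widest difference (2.68 ± 0.80, adjusted p 0.0375), with a change of 1.87 ± 0.57 in kidney tumors and -0.81 ± 0.57 in liver tumors, where it was high in normal tissue. Cxcl14 had the next (-1.96 ± 0.45, adjusted p 0.00939), with -0.10 ± 0.31 in kidney and 1.86 ± 0.31 in liver. Cxcl16 (-1.18 ± 0.31) and Cx3cl1 (-1.05 ± 0.32) were higher in liver tumors and not called in kidney tumors, Cxcl12 fell further in kidney (-0.79 ± 0.24), and Ccl11 (0.84 ± 0.26) and Ccr3 (0.92 ± 0.29) were lower in liver tumors and not called in kidney tumors. Only the Cxcl14 difference passed in all 12 fits that left out 1 array, and it passed with tumor 1 as the only kidney tumor (-2.15, adjusted p 0.0449) or liver tumor (-1.98, adjusted p 0.0463). Ccl5 (1.66 ± 0.59, adjusted p 0.0733), Cxcr2 (-0.94 ± 0.33, adjusted p 0.0694) and Cxcr4 (0.36 ± 0.32, adjusted p 0.505) did not pass, so their calls in 1 organ or sizes in both are not shown to differ.

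**Figure D3:**
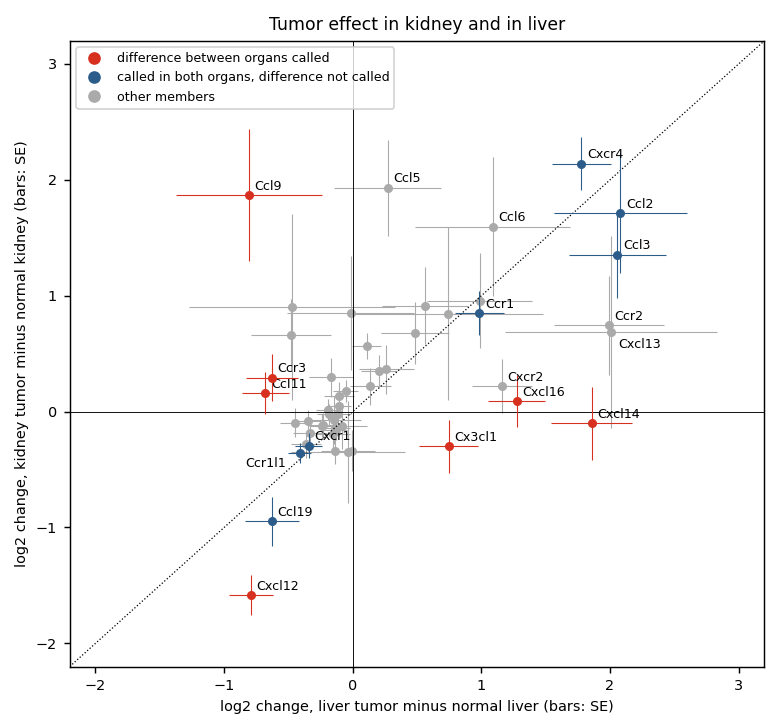
Tumor effect of each of the 51 genes in kidney (vertical axis, kidney tumor minus normal kidney) and in liver (horizontal axis, liver tumor minus normal liver), in log2 units with SE bars. Red points are the 7 genes whose difference between the organs passed in limma, blue points were called in both organs without such a difference, and grey points are the rest. Cxcr4, Ccl2 and Ccl3 lie near the diagonal, Ccl9 far above it and Cxcl14 far below it.

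Genes of the same pathway outside the naming rule were counted in 4 lists. The shares of all genes called higher and lower, to set beside these counts, were 29.9% and 38.7% in secondary kidney tumors, 21.7% and 28.1% in primary kidney tumors, and 21.5% and 30.7% in liver tumors. Of 22 genes of chemokine receptor signalling, 14 were higher and 1 lower in secondary kidney tumors against normal kidney (median 0.68), 14 and 1 in primary kidney tumors (median 0.47) and 12 and none in liver tumors (median 0.62). The G protein subunit gene Gng2 rose by 3.41 ± 0.19 in secondary and 1.71 ± 0.19 in primary kidney tumors and by 1.15 ± 0.19 in liver tumors, and Elmo1, which links receptors to Rac, by 2.20 ± 0.13, 2.03 ± 0.13 and 1.25 ± 0.13. Of 18 signals that induce chemokines, 2 were higher and 7 lower in secondary tumors, 4 and 3 in primary kidney tumors and 3 and 6 in liver tumors. Il1b was higher in both primary tumor kinds, by 0.88 ± 0.29 in kidney and 1.34 ± 0.29 in liver. Of 13 interferon response genes, 3 were higher and 2 lower in secondary tumors, 4 and none in kidney tumors, and none and 3 in liver tumors. The difference between organs passed for 4 of them, all with a higher value in kidney, as for Usp18 (1.88 ± 0.50). Of 13 further family members and partners, 4 were higher and 2 lower in secondary tumors, with Pf4, a CXC ligand of platelets and macrophages, up by 1.96 ± 0.45 and the scavenging receptor gene Ackr1 up by 1.42 ± 0.12. In primary kidney tumors none was higher and 1 lower, and in liver tumors 1 and 2.

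**Figure D4:**
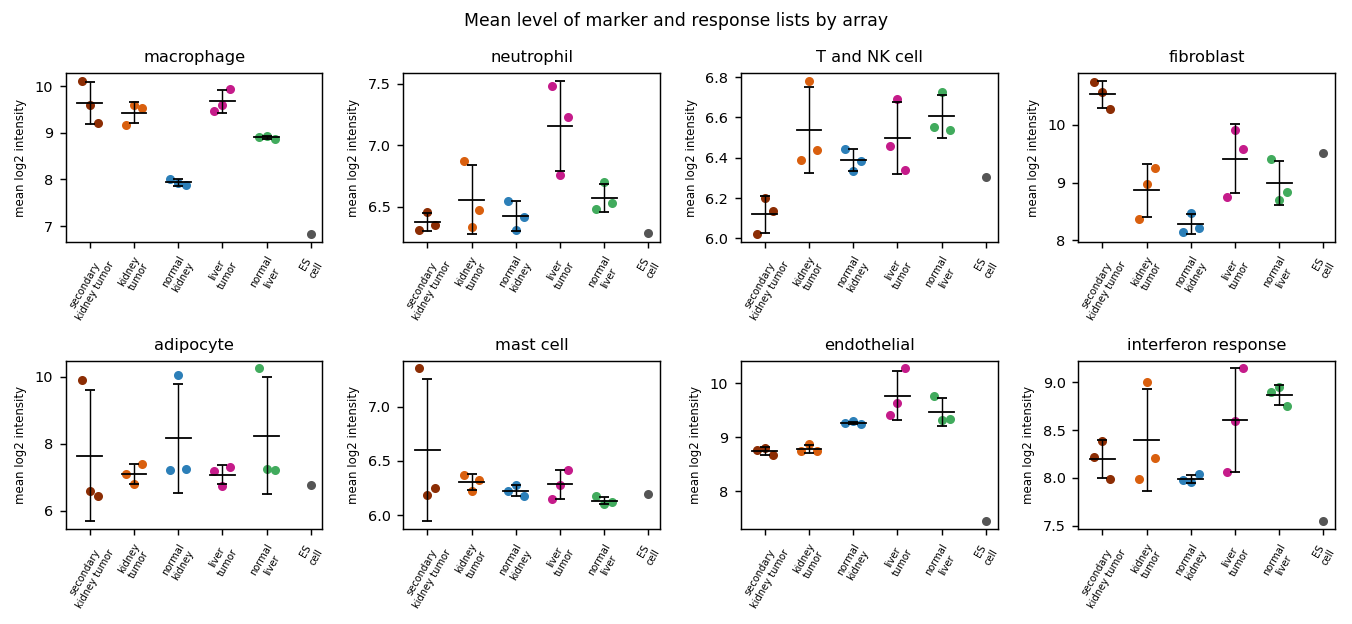
Mean log2 intensity of 8 gene lists in each of the 16 arrays, by group. Macrophage genes are higher in every tumor array than in the normal arrays of its organ, fibroblast genes are highest in the 3 secondary tumors, and the adipocyte list is high in secondary tumor 1, normal kidney 2 and normal liver 1.

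The ES cell array gives single values with no test. It was above all 15 tissue arrays for Ccl7 (10.19), Ccr4 (6.32) and Cxcl5 (6.79), below all of them for 13 genes and within their range for 35. Ccl2, the neighbour of Ccl7, was at 9.91, above all but 1 tissue array. Cxcr4 (7.68) and Cxcl12 (7.63) were both low, Cxcl12 below every tissue array. The 13 lowest included the macrophage genes Ccl6, Ccr1, Ccr2 and Cx3cr1, and the summed macrophage intensity was 1915, while that of 10 pluripotency genes was 46978, against 1031 to 10609 in tissue arrays. Fibroblast markers averaged 9.52 in this array, above normal kidney, and whether other cells in the culture gave the Ccl2 and Ccl7 signal was not tested.

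The remaining members varied little. With the single ES cell array counted as a group, the group means spanned under 0.5 log2 units for 12 genes (Ccl1, Ccl4, Ccl17, Ccl22, Ccl25, Ccl26, Cxcl3, Cxcl17, Cxcr3, Cxcr5, Ccr7 and Xcl1), over 1 for 27 and over 2 for 18. For Ccl25 this holds for the probe set used. Group means of its other probe set ran from 7.39 in liver tumors to 8.23 in normal kidney. The widest spans were those of Ccl9 (5.14), Ccl8 (4.73) and Ccl6 (4.17), with the ES cell array or liver tumors at the low end. The Ccl27 genes, measured by 3 probe sets with several symbols and not counted among the 51, were at 9.93, 10.22 and 10.25 in secondary tumors, at 8.56, 10.11 and 9.24 in kidney tumors and at 9.46, 9.41 and 9.69 in normal kidney in the first of these probe sets.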

How the data were processed

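RNA isolated with a column kit (RNeasy Plus Mini) and labelled with biotin was hybridised to Affymetrix whole-transcript arrays, per the labels' protocols. What the authors deposited is 1 linear intensity for every probe set in each sample; how they corrected, summarised and normalized it is not given in the sources used here. The submitters' processing notes name mm9. Intensities were turned into log2 values without pseudocount or filter. Of 28856 probe sets 21789 had 1 symbol in the platform annotation, 1621 several and 5446 none; the brightest 1-symbol probe set was kept per gene (19938 genes). The tests came from limma (version 3.58.1, R 4.3.3), with 1 coefficient per group over 16 arrays, 10 residual degrees of freedom and no trend. Genes were called at a 2-sided Benjamini-Hochberg adjusted p of 0.05 over all genes. Errors are SEs of that fit beside changes and SDs beside levels. Precision is limited by how few arrays there are. The fit was tested on simulated data. Members and lists were chosen with earlier results of these data known. Named with array values were, per comparison, up to 12 called members of largest change without overlap, plus Cxcl12, Cxcr4, Cx3cl1, Cx3cr1 and Cxcl16, and up to 3 called genes of each list; others were chosen after their values were seen. A planned ranking of members by level within a group was not made, since levels of different probe sets cannot be compared. Alternatives are given in the closing section. Promoters came from RefSeq (GRCm38.p6). Sorted cells and methylation data were not analysed here.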

Additional observations from a re-analysis of the deposited data

Results flagged for a closer look

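The tumor effect differed between kidney and liver for 7 genes by the test of the difference (kidney minus liver, log2, limma adjusted p over all genes). It was 2.68 for Ccl9 (adjusted p 0.0375), -1.96 for Cxcl14 (0.00939), -1.18 for Cxcl16 (0.0208) and -1.05 for Cx3cl1 (0.043). For Ccr3 it was 0.92 (0.0447), for Ccl11 0.84 (0.0426) and for Cxcl12 -0.79 (0.0389). Groups of 3 arrays were not searched for outlying arrays.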

How the results depend on the processing

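The alternatives were centring arrays on their medians, quantile normalization, the fit on the compared groups only, leaving out the dimmest genes, the mean of a gene's probe sets, an intensity trend with robust moderation, the replicate number as a block, leaving out each array in turn, and leaving out kidney tumors 2 and 3 together. Leaving out liver tumors 2 and 3 together was added after seeing the data.

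Of the 51 genes, 15 were called for kidney tumor against normal kidney, and 9 without kidney tumors 2 and 3. For secondary tumor against normal kidney 32 became 16 without the dimmest genes, which left 25 of the 51, and for secondary against primary tumor 18 became 7 in that way and 11 without kidney tumors 2 and 3. For liver tumor against normal liver 18 became 31 with centred arrays, 11 without the dimmest genes and 5 without liver tumors 2 and 3. For normal kidney against normal liver 9 became 16 with the compared groups only. For the difference between organs 7 became 4 without kidney tumors 2 and 3, 3 without liver tumors 2 and 3, and 1 to 11 with 1 array left out. The causes were not tested, beyond the fewer genes or arrays in some fits. Among values of named genes under an alternative, 960 kept direction and side of the threshold, 139 lost and 7 gained a call, and 9 changed sign, none of them called: for Cx3cr1 the difference between organs (-0.30 without kidney tumors 2 and 3, and with 1 array left out -0.14 to 0.30), kidney tumors (-0.034 without kidney tumors 2 and 3), liver tumors (-0.23 without liver tumors 2 and 3) and normal kidney against liver (-0.011 with quantile normalization); for Cxcl16 kidney tumors (-0.042 centred, and -0.094 to 0.30 with 1 array left out); for Cxcr4 normal kidney against liver (-0.0081 to 0.38 with 1 array left out). No called gene changed sign under either scaling, but some calls were lost. In kidney tumors these were Cxcl1 under both scalings, Ccl6 with quantile normalization and Cxcl2 with centring. In secondary tumors against normal kidney they were Ccl2 and Cxcl13 under both and Ccr3 with centring. Quantile normalization also lost Ccl24, Ccr4, Ccr8 and Ccr9 there. It lost Ccl26 and Ccr6 in secondary against primary tumors, and Ccl26 and Cxcr1 in liver tumors.

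With 1 array left out the other counts ran from 10 to 19, 27 to 33, 13 to 18, 14 to 22 and 7 to 9. The replicate block gave 4 calls for the difference between organs and lost 5 of the 7 reported (Ccl9, Ccl11, Ccr3, Cx3cl1 and Cxcl12); quantile normalization gave 5 and lost 3 (Ccl9, Cx3cl1 and Cxcl16). Same-numbered arrays of compared groups correlated between -0.28 and 0.15 in their deviations from the group means. Kidney tumors were not set against liver tumors in this way, although tumor 1 had the low Xist level in both organs. Such a correlation cannot show whether same-numbered arrays share an animal or a batch, so pairing was not settled.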
